A study of Mus musculus with 6 samples.

Results

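The nuclear genes of the mitochondrial respiratory chain, grouped by complex I to V, were compared between Uhrf2-depleted and control cells of AML12, a non-tumorigenic mouse hepatocyte line. They were chosen by symbol alone, as protein-coding nuclear genes of GENCODE M21 whose names begin with Ndufa, Ndufb, Ndufc, Ndufs, Ndufv, Uqcr, Cox4i, Cox5, Cox6, Cox7, Cox8 or Atp5, together with Sdha, Sdhb, Sdhc, Sdhd and Cyc1. This rule found 95 genes, and all of them stood among the 35709 genes of the deposited table. The siUhrf2 group held 3 samples of cells given a small interfering RNA (siRNA) that targets Uhrf2, for 72 h. The siCtrl group held 3 samples given a scrambled siRNA for the same time. Both groups received their siRNA with the transfection reagent Lipofectamine RNAiMAX, and both are labelled as coming from this single cell line, of which the siCtrl cells are labelled wild type. Total RNA was sequenced. Whether the replicates are separate cultures is not given in the labels, and the p-values therefore reflect only sample-to-sample spread, possibly a technical one.

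The respiratory chain sits in the inner mitochondrial membrane. Complex I takes electrons from NADH and complex II from succinate, both pass them to coenzyme Q, complex III passes them on to cytochrome c, and complex IV hands them to oxygen. Complexes I, III and IV pump protons, and complex V, the ATP synthase, uses the proton gradient to make ATP. Most subunits are encoded in the nucleus, translated in the cytosol and imported, while a small set is encoded in mitochondrial DNA and must be assembled with them. Hepatocytes are rich in mitochondria, which serve their gluconeogenesis, urea synthesis and fatty acid oxidation.

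Uhrf2, the targeted gene, had 2942, 2805 and 2777 normalized counts in siUhrf2 cells and 8899, 9058 and 9018 in siCtrl cells, so that 31.6% of the control level remained (log2 fold change -1.66, SE 0.034, limma adjusted p = 7.58e-11). The libraries held 44.6 to 53.1 M estimated reads. Replicate 1 stood apart in both groups: pairs of libraries that included it differed by 6.68 to 10.6 in chi-square per degree of freedom, against 2.96 for replicates 2 and 3 of siUhrf2 and 3.84 for replicates 2 and 3 of siCtrl. Of the markers that define hepatocytes, Trf, Rbp4 and Hnf4a were expressed, while Alb lay at 0.361 to 0.549 FPKM in siUhrf2 cells and 0.671 to 0.910 FPKM in siCtrl cells, and Apoa1 was lower still. The summed level of 8 hepatocyte markers was 1140 to 1195 FPKM in siUhrf2 cells and 1536 to 1686 FPKM in siCtrl cells, with 4 of 6 tested markers lower and 1 higher. Of 6 markers of bile duct or progenitor cells, 5 were tested, of which 3 were higher and 1 lower, with sums of 3721 to 4021 FPKM in siUhrf2 cells and 3183 to 3385 FPKM in siCtrl cells, and Epcam was listed at 0. Of 6 macrophage or leukocyte markers, 3 were tested and 2 were lower, with sums of 98.6 to 111 FPKM in siUhrf2 cells and 104 to 111 FPKM in siCtrl cells, and Adgre1 was listed at 0. The 2 lower ones, Cd68 and Csf1r, averaged under 5 FPKM. Most of the sums thus came from the 1 other tested marker, which was not called (log2 fold change 0.01). Sums of endothelial markers were at most 0.110 FPKM in every library, those of striated muscle at most 0.558 FPKM, with Actc1, Myh6 and Mb listed at 0, and those of fibroblast or stellate markers at most 1.33 FPKM. The part of these marker differences in the results below was not tested.

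More of the respiratory chain genes were higher than lower in siUhrf2 cells, by small amounts. Of the 95 genes, 87 passed the filter of 1 FPKM on average over the libraries, and 49 of these (56.3%) were higher and 5 (5.75%) lower at a limma adjusted p under 0.05. Among all 11343 genes tested, 61.0% were called, 29.9% higher and 31.1% lower, so the share of respiratory chain genes called in either direction (62.1%) was near the background and the split between higher and lower was not. Among the 2707 genes averaging 50 FPKM or more, a level nearer to that of most respiratory chain genes, 68.2% were called, 39.0% higher and 29.3% lower. The median log2 fold change of the 87 genes was 0.13, or 1.09-fold, against -0.01 over all genes tested and 0.04 over the genes of at least 50 FPKM. The changes ran from -0.28 to 0.49 on the log2 scale, with 72 positive and 15 negative. Among called genes, the median change in either direction was 1.13-fold for the respiratory chain and 1.22-fold over all genes. In 59 of the 87 genes (67.8%) the groups did not overlap, close to the 66.7% of all genes tested. Without replicate 1 of both groups, a setting chosen after seeing the data, 54 genes were higher and 5 lower. The 5 lower genes became 3 without replicate 1 of siCtrl, and 2 without replicate 3 of siCtrl or without replicate 2 or 3 of siUhrf2. In bulk RNA a change in the number of cells of a type and a change in RNA per cell cannot be told apart.

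**Figure D1:**
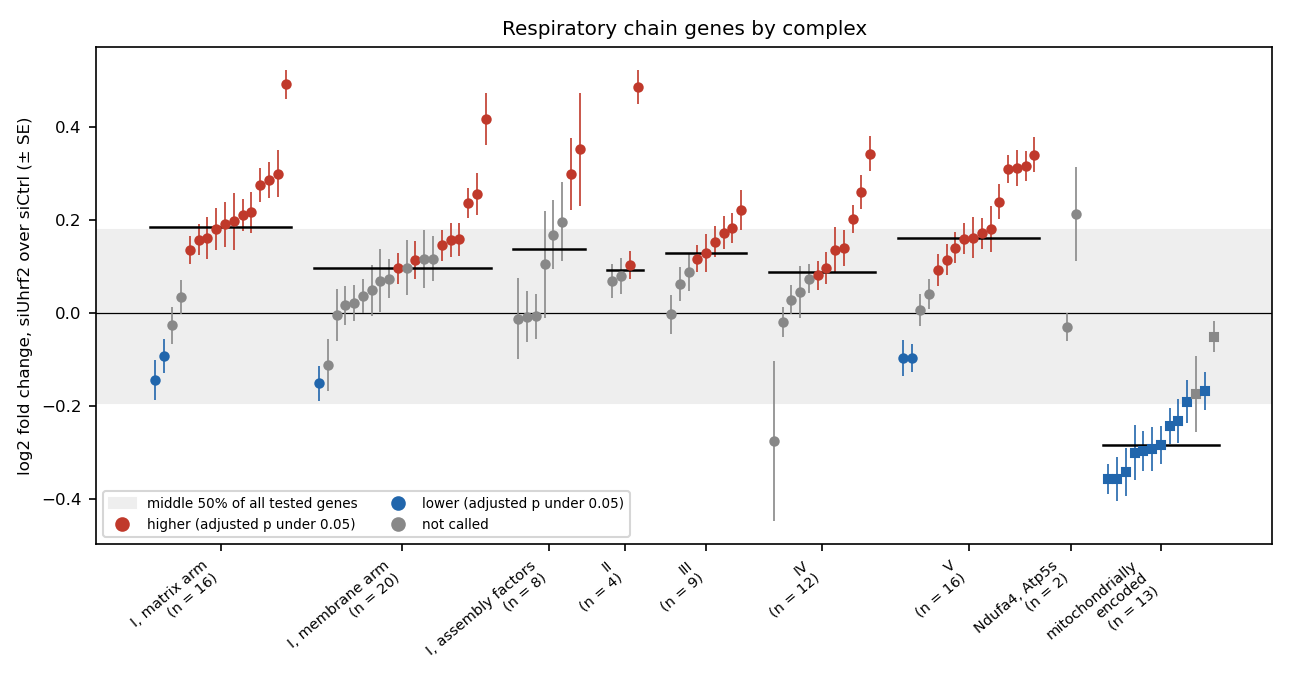
Each point is the log2 fold change of a tested gene, siUhrf2 over siCtrl, with its standard error as the bar, arranged by complex with the number of genes below. Black lines mark medians, and the grey band holds the middle 50% of all genes tested. The squares on the right are the 13 mitochondrially encoded subunits, of which 11 were lower, while the nuclear groups had medians between 0.09 and 0.19. Quantile normalization, which sets all libraries to the same value at each rank, gave 9 lower.

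The 8 genes that were not tested were close to silent in both groups. Ndufa4l2, Cox7b2, Cox8b, Cox8c and a second Ensembl entry named Atp5o (ENSMUSG00000116933) were listed at 0 in all 6 libraries. Cox4i2, Cox6a2 and Cox6b2 had at most 5.57 normalized counts in any library. These include the muscle or testis forms of complex IV subunits, and none of the 8 reached the level filter in either group. The 87 tested genes had means of 3.14 to 1621 FPKM. Together the 95 genes took 1.07% to 1.08% of the normalized counts in siUhrf2 libraries and 0.976% to 0.980% in siCtrl libraries.

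The promoters of these genes are shown because many of the genes moved in the same direction, and because the nuclear respiratory factors NRF1 and GABPA (NRF2) are known to bind the promoters of respiratory genes. RefSeq windows of 300 bases, from 250 bases before the start to 50 bases from it on (GRCm38.p6), were found for 71 of the 87 tested genes. They were searched on both strands for GCGCA followed by any base and GCGC (NRF1), CCGGAAG (GABPA), AAGATGGCG (YY1) and GGGCGG (SP1), none of which contains another. Each sequence below is written 5′ to 3′ along the gene, with the matches to the NRF1 motif or, in Sdhb, the GABPA motif in capitals. They belong to 3 of the genes that rose most and to a gene that fell.
Sdhb, chr4:140961021-140961320 (plus strand): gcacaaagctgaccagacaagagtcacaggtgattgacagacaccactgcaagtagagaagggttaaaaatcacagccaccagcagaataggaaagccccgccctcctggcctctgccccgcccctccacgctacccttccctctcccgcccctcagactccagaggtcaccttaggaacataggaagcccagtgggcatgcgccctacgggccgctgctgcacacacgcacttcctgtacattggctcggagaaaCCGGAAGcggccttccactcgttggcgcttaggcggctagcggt
Ndufb4, chr16:37654319-37654618 (minus strand): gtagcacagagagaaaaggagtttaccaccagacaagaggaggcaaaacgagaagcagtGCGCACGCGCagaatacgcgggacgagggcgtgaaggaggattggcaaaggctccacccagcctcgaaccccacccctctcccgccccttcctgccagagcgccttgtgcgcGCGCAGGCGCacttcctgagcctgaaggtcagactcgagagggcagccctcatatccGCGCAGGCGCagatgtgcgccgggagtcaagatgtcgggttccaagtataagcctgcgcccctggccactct
Atp5g2, chr15:102670998-102671297 (minus strand): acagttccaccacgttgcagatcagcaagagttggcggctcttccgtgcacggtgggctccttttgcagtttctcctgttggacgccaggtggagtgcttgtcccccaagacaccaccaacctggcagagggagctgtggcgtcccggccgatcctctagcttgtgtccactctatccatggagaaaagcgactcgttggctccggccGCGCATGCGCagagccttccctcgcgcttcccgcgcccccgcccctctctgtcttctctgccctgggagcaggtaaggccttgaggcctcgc
Ndufa6, chr15:82354242-82354541 (minus strand): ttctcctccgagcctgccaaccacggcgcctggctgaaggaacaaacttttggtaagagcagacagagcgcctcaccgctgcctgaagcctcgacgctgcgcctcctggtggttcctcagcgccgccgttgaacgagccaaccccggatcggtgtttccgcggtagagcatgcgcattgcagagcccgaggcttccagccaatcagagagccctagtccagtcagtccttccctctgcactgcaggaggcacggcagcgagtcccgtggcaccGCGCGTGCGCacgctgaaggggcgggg

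Positions count from the RefSeq start used for the window, which lies 68 bases from the GENCODE start of the gene in Sdhb, 85 in Ndufb4, 31 in Ndufa6 and 1305 in Atp5g2, so the Atp5g2 window does not surround the start of the gene as positioned here. The Ndufb4 window held 3 NRF1 matches, with first bases at -191, -79 and -22 from the start, and the Atp5g2 window held 1, from -42 to -33. In Ndufa6, which fell, the NRF1 match lay at 23 to 32 on the opposite strand, so the motif was present in genes that moved in either direction. The Sdhb window held the GABPA letters at 6 to 12. Of the 71 windows, 18 (25.4%) held the NRF1 motif, against 11.5% of 8831 windows of tested genes and 6.01% of all 20152 windows. The GABPA motif was in 17 (23.9%), against 20.4% of tested genes and 11.2% of all windows. The YY1 motif was in 7 (9.86%), against 3.61% and 1.82%, and the SP1 motif in 31 (43.7%), against 67.1% and 43.4%. At least 1 of the NRF1, GABPA and YY1 motifs stood in 17 of 37 windows of genes called higher (45.9%), in 3 of 5 of genes called lower and in 16 of 29 of genes not called (55.2%). A match describes these letters in this window and does not show a binding site. Of the mRNAs of the factors themselves, those of Nrf1 and Gabpa were higher, that of Yy1 was lower and that of Sp1 was not called. The log2 fold change was 0.23 for Nrf1 (limma adjusted p = 0.00179), 0.24 for Gabpa (limma adjusted p = 1.05e-04), -0.12 for Yy1 (limma adjusted p = 0.0177, call lost under 6 of 17 settings) and 0.03 for Sp1 (SE 0.034, limma adjusted p = 0.424). Gabpb1 and Gabpb2, the partners of Gabpa, were higher with 0.15 and 0.10 (limma adjusted p = 0.0131 and 0.0281), and these calls were lost under 2 and 4 of 17 settings.

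Complex I, the NADH dehydrogenase, has a matrix arm that carries the flavin, the iron-sulfur clusters and the quinone site, and a membrane arm that pumps protons. Of its 36 nuclear subunits, 20 were higher, 3 were lower and 13 were not called, with a median log2 fold change of 0.13. In the matrix arm 12 of 16 subunits were higher and 2 lower, with a median of 0.19. In the membrane arm, with which Ndufab1, present in both arms, was counted, 8 of 20 (40%) were higher and 1 lower, with a median of 0.10. That 40% was near the 39.0% among genes averaging 50 FPKM or more, so the number higher is no result about this arm. Among all genes tested 29.9% were higher and 31.1% lower. The difference between the arms was not tested. All 7 nuclear core subunits, those conserved from bacteria, were called, 6 higher and 1 lower. Of the 29 supernumerary subunits, 14 were higher and 2 lower. The core subunits Ndufs8 and Ndufv2, which bind iron-sulfur clusters, rose by 0.29 and 0.27 on the log2 scale (limma adjusted p = 5.84e-05 and 4.99e-05).

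Ndufb4, a supernumerary subunit of the membrane arm on chromosome 16 from 37647170 to 37654453 in GRCm38 (GENCODE M21, as for all gene positions given here), had 1452, 1669 and 1594 normalized counts in siUhrf2 cells and 1183, 1183 and 1159 in siCtrl cells. The groups did not overlap, although the siUhrf2 libraries were more spread than the siCtrl libraries (log2 fold change 0.42, SE 0.055, limma adjusted p = 4.92e-05). Ndufa12, a supernumerary subunit of the matrix arm on chromosome 10 from 94198720 to 94221443, had 3397, 3865 and 3710.3 normalized counts in siUhrf2 cells and 3098, 2969.9 and 2841 in siCtrl cells. Replicate 1 was the lowest siUhrf2 library and the highest siCtrl library, and the groups still did not overlap (log2 fold change 0.30, SE 0.050, limma adjusted p = 3.16e-04). Ndufb8, the complex I gene with the highest level, had 272 ± 6.17 FPKM in siUhrf2 cells and 233 ± 2.12 FPKM in siCtrl cells (SD, n = 3 each), a log2 fold change of 0.24.

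The 3 lower subunits of complex I moved by smaller amounts. Ndufa1, a small subunit encoded on chromosome X from 37187588 to 37191163, had 2026, 2045 and 2008 normalized counts in siUhrf2 cells and 2227, 2247 and 2280.05 in siCtrl cells. All siUhrf2 libraries were below all siCtrl libraries (log2 fold change -0.15, SE 0.038, limma adjusted p = 0.00428), and of the 5 lower genes only this call was kept under all 17 alternative settings. Ndufa6, a matrix-arm subunit of the LYR family, had 4090.2, 3938 and 4217 normalized counts in siUhrf2 cells and 4800.1, 4349.7 and 4398 in siCtrl cells. Its groups did not overlap, with replicate 1 the highest of siCtrl (log2 fold change -0.14, SE 0.044, limma adjusted p = 0.0129), and the call was lost under 3 of 17 settings. Ndufs3, the core subunit that was lower, had 2364, 2346 and 2336 normalized counts in siUhrf2 cells and 2545, 2455 and 2517 in siCtrl cells (log2 fold change -0.09, limma adjusted p = 0.0444). Its groups did not overlap, but the call was lost under 10 of 17 settings. The 3 lower subunits became 1 without replicate 1 of siCtrl or without replicate 2 of siUhrf2.

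The 8 assembly factors named Ndufaf1 to Ndufaf8 help to build complex I and are no part of the finished enzyme. They were expressed at 5.58 to 22.2 FPKM, below nearly all subunits, whose levels ran from 16.8 to 253 FPKM, and 2 were higher, none lower and 6 not called. The share that was higher (25%) was near the 29.9% of all genes tested, so the count is no result about these factors. Ndufaf7, a methyltransferase, had 1235, 1312 and 1271 normalized counts in siUhrf2 cells and 898, 1125 and 1093 in siCtrl cells. The groups did not overlap, and replicate 1 was well below the other siCtrl libraries (log2 fold change 0.30, SE 0.078, limma adjusted p = 0.00643). Ndufaf6 had 165.9, 191.1 and 197.3 normalized counts in siUhrf2 cells and 160.04, 140.2 and 133.6 in siCtrl cells. Its groups came close in the replicate 1 libraries (log2 fold change 0.35, SE 0.122, limma adjusted p = 0.0259), and the call was lost under 5 of 17 settings. The 2 higher factors became 1 without replicate 2 of siCtrl or replicate 2 or 3 of siUhrf2, 3 without replicate 1 of siCtrl and 4 without replicate 1 of both groups.

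**Figure D2:**
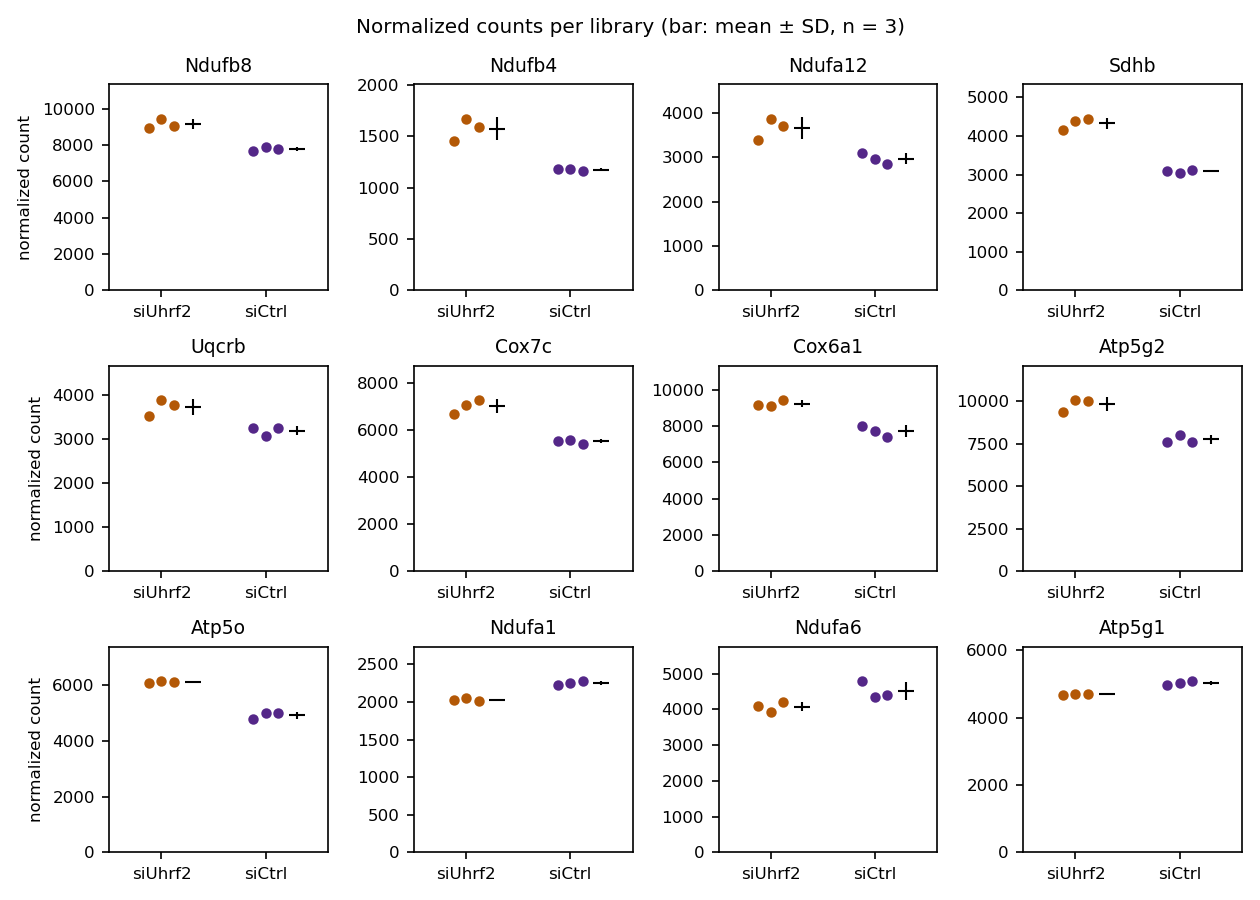
Normalized counts of 12 genes in each library, siUhrf2 on the left and siCtrl on the right of every panel, with the mean and SD (n = 3 each) as the cross beside the points. All axes start at 0, which shows the sizes of the differences: Sdhb was 1.40-fold and Ndufb4 1.34-fold higher in siUhrf2 cells, and Ndufa1 was lower by 0.15 on the log2 scale.

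Complex II, succinate dehydrogenase, is also an enzyme of the citric acid cycle and is encoded by nuclear genes alone. Its iron-sulfur subunit Sdhb, a plus-strand gene of chromosome 4 from 140961203 to 140979193, had 4164, 4383 and 4443 normalized counts in siUhrf2 cells and 3099, 3050.1 and 3122 in siCtrl cells. The gap between the groups was much wider than the spread within either (log2 fold change 0.49, SE 0.036, 1.40-fold, limma adjusted p = 6.29e-07). In FPKM the Sdhb level was 76.7 ± 1.82 in siUhrf2 cells and 55.3 ± 0.823 in siCtrl cells (SD, n = 3 each).

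The other subunits of complex II differed little. Sdha, the flavoprotein subunit and the complex II gene with the highest level, had 14202, 14408 and 14672 normalized counts in siUhrf2 cells and 13483, 13554 and 13266 in siCtrl cells (log2 fold change 0.10, SE 0.030, limma adjusted p = 0.0115). Its groups did not overlap, and the call was lost under 3 of 17 settings, 2 of which left out replicate 3 of siCtrl or of siUhrf2 and gave 1 higher gene in the complex. The membrane anchor Sdhc had 5151, 5339 and 5450.3 normalized counts in siUhrf2 cells and 4805, 5160.5 and 5127 in siCtrl cells, and its groups overlapped (log2 fold change 0.08, SE 0.038, limma adjusted p = 0.0907). The other anchor, Sdhd, had 6219.95, 6296 and 6203 normalized counts in siUhrf2 cells and 5654, 6068 and 6142 in siCtrl cells, without overlap but short of the threshold (log2 fold change 0.07, SE 0.037, limma adjusted p = 0.126).

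Complex III, the cytochrome bc1 complex, had 6 of 9 genes higher, none lower and 3 not called, with a median log2 fold change of 0.13. Among all genes tested 29.9% were higher and 31.1% lower. Uqcrb, a small subunit near the quinone site, had 3524, 3895 and 3769.7 normalized counts in siUhrf2 cells and 3248, 3081 and 3266 in siCtrl cells. The groups did not overlap, with replicate 1 the lowest of siUhrf2 (log2 fold change 0.22, SE 0.043, limma adjusted p = 9.63e-04). Uqcrfs1, the Rieske iron-sulfur protein, had 5903, 5759 and 5706 normalized counts in siUhrf2 cells and 5214, 5028 and 5061 in siCtrl cells (log2 fold change 0.18, SE 0.032, limma adjusted p = 4.40e-04). Cyc1, the cytochrome c1 that gives its electron to cytochrome c, had 7565, 7449 and 7515 normalized counts in siUhrf2 cells and 6360.0, 6907 and 6738 in siCtrl cells (log2 fold change 0.17, SE 0.036, limma adjusted p = 0.00136). All libraries of siUhrf2 lay above all libraries of siCtrl for these genes. Uqcrc2, a core protein with the highest level of complex III, had 248 ± 3.25 FPKM in siUhrf2 cells and 225 ± 4.78 FPKM in siCtrl cells (SD, n = 3 each), a log2 fold change of 0.15.

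Complex IV, cytochrome c oxidase, had 7 of 12 tested nuclear genes higher, none lower and 5 not called, with a median log2 fold change of 0.09. Over all genes tested the shares were 29.9% higher and 31.1% lower. Leaving out replicate 2 or 3 of either group left 4 higher. Cox7c, a small subunit on chromosome 13 from 86044816 to 86046904, had 6702, 7082 and 7304 normalized counts in siUhrf2 cells and 5566, 5610.5 and 5444 in siCtrl cells. The groups were well apart (log2 fold change 0.34, SE 0.037, 1.27-fold, limma adjusted p = 1.00e-05). Cox6a1, the form of subunit VIa found in liver and most tissues, had 9133, 9101 and 9444 normalized counts in siUhrf2 cells and 8029, 7712 and 7381 in siCtrl cells (log2 fold change 0.26, SE 0.037, limma adjusted p = 8.08e-05). Cox4i1, the general form of subunit IV, had 15054, 14947 and 15245 normalized counts in siUhrf2 cells and 12892, 13314 and 13114 in siCtrl cells (log2 fold change 0.20, SE 0.030, limma adjusted p = 1.26e-04). Neither gene showed overlap between the groups.

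Cox8a, the complex IV gene with the highest level, had 16143, 17100.5 and 17444 normalized counts in siUhrf2 cells and 16526, 15185 and 14478 in siCtrl cells. Its groups overlapped because replicate 1 was the lowest of siUhrf2 and the highest of siCtrl (log2 fold change 0.14, SE 0.048, limma adjusted p = 0.0307), and the call was lost under 7 of 17 settings. Ndufa4, once counted with complex I and now with complex IV, had 7587, 7609.95 and 7380.3 normalized counts in siUhrf2 cells and 7772, 7673 and 7607 in siCtrl cells. Its groups overlapped (log2 fold change -0.03, SE 0.030, limma adjusted p = 0.408). Ndufa4 was kept apart and is not in the counts, medians or sums given for complex IV.

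Complex V, the ATP synthase, had 12 of 16 tested genes higher and 2 lower, the same counts as the matrix arm of complex I. Over all genes tested 29.9% were higher and 31.1% lower. The median log2 fold change of complex V was 0.16. Of the 5 genes of the catalytic F1 head, Atp5a1, Atp5b, Atp5c1 and Atp5d were higher and Atp5e lower. Of the 11 other tested genes, 8 were higher and 1 lower. Atp5b, the catalytic beta subunit, had the highest level of all 95 genes, at 1709 ± 13.0 FPKM in siUhrf2 cells and 1532 ± 14.9 FPKM in siCtrl cells (SD, n = 3 each). Its log2 fold change of 0.17 (SE 0.033, limma adjusted p = 8.98e-04) was 0.05 under quantile normalization, which ended the call, as it did for Atp5a1 with 0.06 in place of 0.16. That setting gives all libraries the same value at the same rank, and it was the only 1 of 17 settings to end either call.

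Atp5o, the stalk subunit that confers oligomycin sensitivity, had 6053, 6145 and 6119 normalized counts in siUhrf2 cells and 4768, 4978 and 4976 in siCtrl cells. The siUhrf2 libraries lay close together and above all of siCtrl (log2 fold change 0.32, SE 0.032, limma adjusted p = 6.62e-06). Atp5f1, subunit b of the same stalk, had 8803, 9488 and 9670.3 normalized counts in siUhrf2 cells and 7363, 7474 and 7679.97 in siCtrl cells, again without overlap (log2 fold change 0.31, SE 0.039, limma adjusted p = 3.25e-05). Atp5e, the epsilon subunit of F1, had 3801, 3641 and 3662 normalized counts in siUhrf2 cells and 3774, 4063 and 4048 in siCtrl cells. Replicate 1 of the groups overlapped, and the small fall (log2 fold change -0.10, SE 0.039, limma adjusted p = 0.0471) lost its call under 10 of 17 settings. Without replicate 3 of either group none of the complex V genes was called lower, and without replicate 2 of either group 1 was. Atp5s, which shares the prefix but is no subunit of the enzyme, was not called (log2 fold change 0.21, SE 0.101, limma adjusted p = 0.0894).

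Subunit c of complex V, which forms the rotating ring, is encoded by Atp5g1, Atp5g2 and Atp5g3, whose mature proteins are identical. The genes moved in different directions. Atp5g2, on chromosome 15 from 102662864 to 102672352, had 9364, 10087 and 10025 normalized counts in siUhrf2 cells and 7612, 8039.9 and 7623 in siCtrl cells, with every siUhrf2 library above every siCtrl library (log2 fold change 0.34, SE 0.038, 1.27-fold, limma adjusted p = 1.39e-05). Atp5g1, on chromosome 11 from 96068852 to 96075670, had 4681, 4707 and 4689 normalized counts in siUhrf2 cells and 4956, 5013 and 5089.6 in siCtrl cells, with every siUhrf2 library below (log2 fold change -0.10, SE 0.031, limma adjusted p = 0.0164), and lost its call under 4 of 17 settings. Atp5g3 was not called (log2 fold change 0.04, SE 0.032, limma adjusted p = 0.299). As a share of the summed FPKM of the 3 genes, Atp5g2 made up 52.2%, 55.0% and 54.5% in siUhrf2 cells and 47.8%, 49.8% and 47.6% in siCtrl cells, a difference of 5.52 percentage points. Atp5g3 made up 39.9% ± 1.43 in siUhrf2 cells and 44.1% ± 1.19 in siCtrl cells, and Atp5g1 made up 6.18% ± 0.0769 in siUhrf2 cells and 7.52% ± 0.0946 in siCtrl cells (SD, n = 3 each). The sizes of these shares depend on the lengths behind the FPKM values. Those were 2666 bases for Atp5g1, 640 for Atp5g2 and 772 for Atp5g3. No share overlapped between the groups, and p was 0.10 for each in an exact two-sided permutation test, which cannot go lower with 3 libraries a group.

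**Figure D3:**
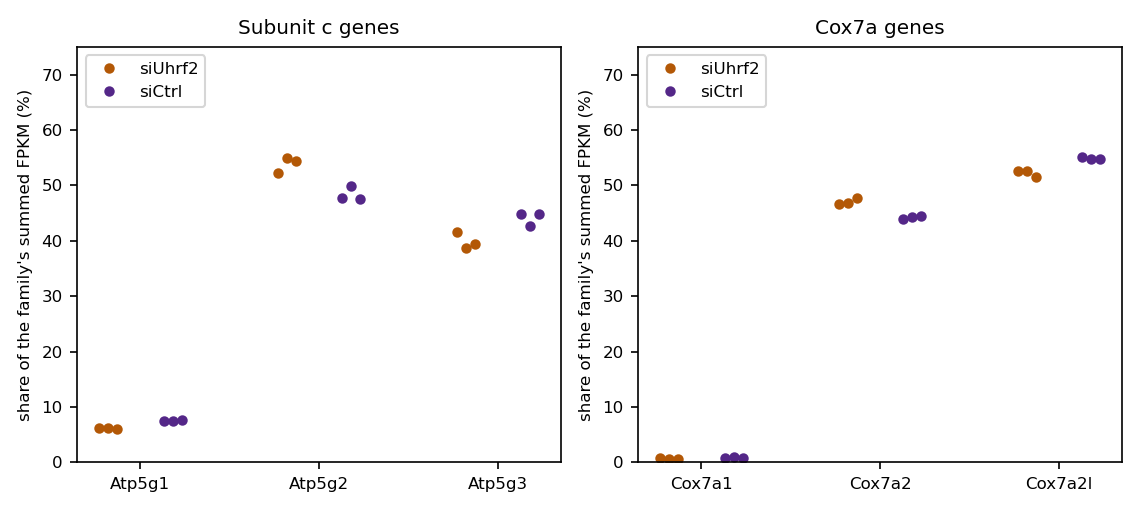
Share of the summed FPKM that each gene takes within the subunit c genes of complex V (left panel) and the Cox7a genes of complex IV (right panel), with a point per library, siUhrf2 left of siCtrl. Atp5g2 took 53.9% in siUhrf2 cells and 48.4% in siCtrl cells, and Cox7a2 took 47.0% in siUhrf2 cells and 44.2% in siCtrl cells.

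Among the Cox7a genes of complex IV, Cox7a2, the form found in liver, was higher (log2 fold change 0.14, SE 0.039, limma adjusted p = 0.00822). Cox7a2l, a relative linked to supercomplexes of complexes III and IV, was not called (log2 fold change -0.02, SE 0.033, limma adjusted p = 0.621), nor was the heart and muscle form Cox7a1 (log2 fold change -0.28, SE 0.172, limma adjusted p = 0.183), whose 55.9 to 84.9 normalized counts per library made it the least precise of the tested genes. Cox7a2 took 47.0% ± 0.581 of the summed FPKM of these genes in siUhrf2 cells and 44.2% ± 0.236 in siCtrl cells, and Cox7a2l took 52.2% ± 0.554 in siUhrf2 cells and 54.9% ± 0.243 in siCtrl cells (SD, n = 3 each). In the other families with tissue forms, a single form carried nearly all of the signal in every library: Cox4i1, Cox6a1 and Cox6b1 took at least 99.96%, 99.98% and 99.98% of theirs, and Cox8a, Cox7b and Ndufa4 took 100%.

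Summed over its nuclear genes, the transcript level of every complex was higher in siUhrf2 cells. The 13 mitochondrially encoded subunits are not in these sums. Together they were lower, at 57708 to 60591 FPKM in siUhrf2 cells and 69299 to 73093 FPKM in siCtrl cells. The complex I subunits summed to 3124, 3129 and 3117 FPKM in siUhrf2 cells and 2874, 2868 and 2864 FPKM in siCtrl cells, a ratio of 1.09. Complex II summed to 631, 634 and 640.4 FPKM in siUhrf2 cells and 579.6, 587 and 584 FPKM in siCtrl cells, also a ratio of 1.09. Complex III summed to 1371, 1382 and 1387 FPKM in siUhrf2 cells and 1267.5, 1284 and 1281 FPKM in siCtrl cells, a ratio of 1.08. Library by library, no siCtrl sum of nuclear genes reached a siUhrf2 sum in any complex. Complex IV summed to 3615, 3658 and 3687 FPKM in siUhrf2 cells and 3432, 3343 and 3326 FPKM in siCtrl cells, a ratio of 1.09. Complex V summed to 4471, 4484 and 4519 FPKM in siUhrf2 cells and 4014, 4052 and 4022 FPKM in siCtrl cells, a ratio of 1.11. These sums are descriptions without a test, and abundant genes weigh most in them: Atp5b alone accounted for 1709 FPKM in siUhrf2 cells and 1532 FPKM in siCtrl cells.

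**Figure D4:**
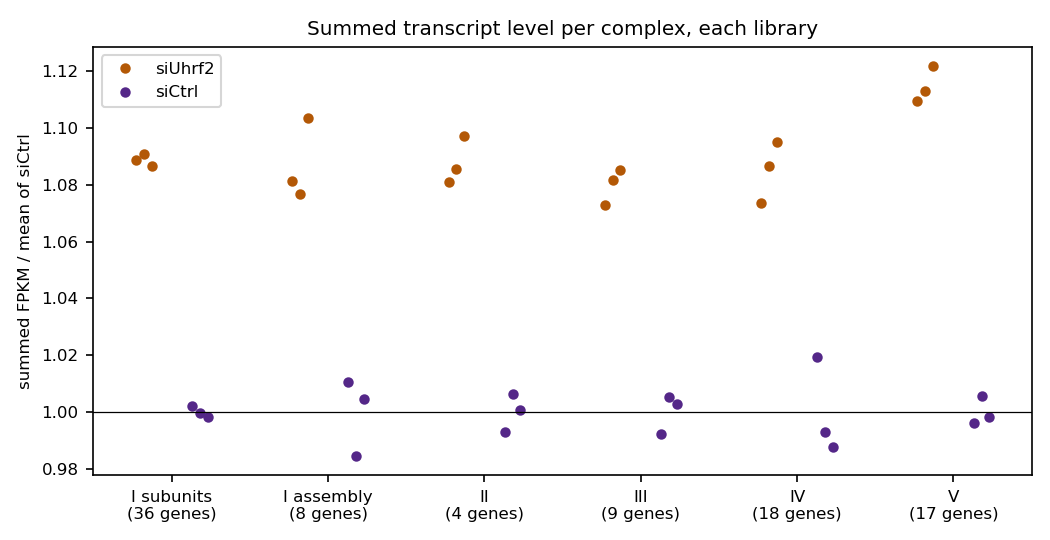
Summed FPKM of the nuclear genes of each complex in each library, siUhrf2 left of siCtrl, without the mitochondrially encoded subunits. The sums of the siUhrf2 libraries were above those of the siCtrl libraries in every complex, with ratios of the means between 1.08 and 1.11.

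The 13 subunits encoded in mitochondrial DNA were mostly lower. Of these, 11 were lower, none higher and 2 not called, with a median log2 fold change of -0.28. Among all genes tested 31.1% were lower and 29.9% higher. The complex III subunit mt-Cytb had 212668, 226347 and 238375 normalized counts in siUhrf2 cells and 299330.0, 287411 and 280703 in siCtrl cells (log2 fold change -0.36, SE 0.048, limma adjusted p = 5.78e-05). The complex I subunit mt-Nd4l also had a log2 fold change of -0.36, and the complex IV subunit mt-Co2 one of -0.28 (limma adjusted p = 2.35e-06 and 8.62e-05). Under quantile normalization 9 of the 13 were lower, with -0.23 for mt-Cytb and -0.11 for mt-Co2, and mt-Atp6, at -0.17 as reported, was at 0.054 and not called. That setting gives all libraries the same value at the same rank, so it can remove differences of the most abundant genes by construction. Under each other setting 11 or 12 of the 13 were lower.

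Genes that build, feed or regulate the chain were counted in the same way. Of the 35 assembly factors of complexes II to V, 33 were tested, of which 8 were higher and 10 lower, with a median log2 fold change of 0.03. These counts are near the shares among all genes tested (29.9% higher and 31.1% lower) and are no result about this list. Sdhaf1, which helps to insert iron-sulfur clusters into Sdhb, had 895, 914 and 932 normalized counts in siUhrf2 cells and 573, 505 and 537 in siCtrl cells (log2 fold change 0.76, SE 0.064, limma adjusted p = 1.45e-06). Tmem70, a factor for complex V, had 1374, 1472 and 1538 normalized counts in siUhrf2 cells and 2239, 2067 and 2071 in siCtrl cells (log2 fold change -0.54, SE 0.053, limma adjusted p = 4.65e-06). Coa5, a factor for complex IV, fell by 0.40 on the log2 scale (limma adjusted p = 6.29e-07). A factor for complex V thus fell while most genes of complex V rose.

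Of 7 tested assembly factors of complex I without the Nduf prefix, 3 were higher and none lower: Nubpl, which delivers iron-sulfur clusters, with a log2 fold change of 0.64, Timmdc1 with 0.32 and Acad9 with 0.18 (limma adjusted p = 1.47e-04, 7.46e-05 and 0.00223). Among all genes tested 29.9% were higher and 31.1% lower, and a count among 7 genes is no result about these factors. Of the 14 genes for cytochrome c and coenzyme Q synthesis, 8 were higher and 2 lower, with a median of 0.19, and 5 were higher without replicate 1 of either group. The methyltransferases Coq3 and Coq5 rose by 0.74 and 0.36 on the log2 scale and Pdss2, which makes the prenyl tail, by 0.32 (limma adjusted p = 1.62e-04, 5.95e-05 and 6.71e-04). Cycs, cytochrome c, was not called (log2 fold change 0.06, SE 0.034, limma adjusted p = 0.161).

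Of 7 tested genes for ATP synthase inhibition and for nucleotide, phosphate and metabolite exchange, 3 were higher and none lower: the ADP/ATP carrier Slc25a5 with a log2 fold change of 0.29, the outer membrane channel Vdac3 with 0.23 and the ATP synthase inhibitor Atpif1 with 0.29 (limma adjusted p = 1.49e-05, 9.35e-05 and 1.09e-04). Over all genes tested 29.9% were higher and 31.1% lower, and a count among 7 genes is no result about this list. Of 20 tested regulators of respiratory genes and of mitochondrial DNA expression, 7 were higher and 6 lower, near the shares among all genes tested (29.9% higher and 31.1% lower), so the count is no result about this list. The mitochondrial DNA helicase Twnk and polymerase Polg fell by 0.28 and 0.19 on the log2 scale (limma adjusted p = 6.85e-05 and 4.39e-04). The coactivator Ppargc1a had 1547, 1141 and 1251 normalized counts in siUhrf2 cells and 1936, 1679 and 1851 in siCtrl cells (log2 fold change -0.48, SE 0.114, limma adjusted p = 0.00902), and its partner Esrra had a log2 fold change of -0.14 (limma adjusted p = 0.00320). The mitochondrial DNA packaging factor Tfam rose by 0.20 on the log2 scale (limma adjusted p = 0.00130).

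Respiratory chain transcripts are short, and length went with the direction of change over all genes. The length behind the FPKM values had a median of 790 bases in the 87 tested genes and 1729 bases over all tested genes, and 75 of the 87 lay in the length class that holds the shortest genes, up to 1182 bases. In that class 33.3% of all genes were higher and 23.6% lower, with a median log2 fold change of 0.04. In the class of the longest genes, from 2500 bases up, 25.1% were higher and 37.1% lower, with a median of -0.05. The 56.3% of respiratory chain genes that were higher stood above the share in the class of short genes. Within the 87 genes, longer ones had slightly larger log2 fold changes (Pearson correlation with log2 length 0.14, Spearman correlation 0.17). The part of length in the result was not tested.

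Many of these genes have processed pseudogenes, from which reads can be hard to tell apart. Of the 87 tested genes, 54 shared under 10% of their 31-base words, on either strand, with another annotated gene, and of these 28 were higher and 3 lower. Sdhb, with a share of 0%, was among the 54. Among the tested genes described above, the largest shares were those of Atp5o (49.6%), Atp5g2 (40.2%), Uqcrb (34.8%), Ndufs3 (25.4%), Cox7c (24.5%), Ndufa12 (20.7%) and Ndufb4 (19.1%). Reads from the shared stretches cannot be assigned to a single gene. The genes of the table that share with Atp5o summed to 0.00918 FPKM. For the other 6, the genes that share at least 10% of these words are absent from the deposited table, so they have no value to compare. Shares in the same range were found for Ndufa13 (33.2%), Ndufb11 (29.0%) and Atp5h (25.4%), which were called higher. Ndufb6 (34.4%) and Ndufs5 (26.5%), which were not called, also had such shares. Ndufaf2, which was not called, shared 65.1% with B230220B15Rik, a gene listed at 0.584 FPKM.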

How the data were processed

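Total RNA of 6 samples was sequenced; groups and replicate numbers come from the sample titles. For each gene and library the authors deposited a normalized count (a non-negative signal) and an FPKM value, per the file headers. Kallisto 0.44.0, edgeR and the build GRCm38.p6 are named in the submitters' processing notes, with no role given. Strand use and the summing of transcripts to genes: not given in the sources used here. Estimated reads were the normalized totals divided by the value of 1 read, taken from low values. Only 63.0% to 64.9% of values were whole reads within 0.01, so no count test was run.

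From the deposited normalized counts, log2(value + 1) was taken and fitted with limma 3.58.1 (R 4.3.3, mean-variance trend, robust variances) for the 11343 genes averaging 1 FPKM or more. Genes with a Benjamini-Hochberg adjusted p under 0.05 over all of them were called. Fold changes are siUhrf2 over siCtrl on this scale and understate changes of low genes. The fit was tested on simulated data made for this comparison (11343 genes) and recovered 15 of 50 genes changed 1.1-fold and 50 of 50 changed 1.5-fold, and 5 of its 164 calls were false. Far fewer genes were changed there than were called in the data, so these shares do not carry over to the data.

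The members and lists were chosen with earlier results of these data known. Named genes are, in each complex, up to 3 called genes with the largest rise and up to 3 with the largest fall whose groups did not overlap, the gene with the highest FPKM, all of complex II, Cyc1, the isoform sets, and up to 3 called genes of each other list with the smallest adjusted p. Ndufs8, Ndufv2, Nrf1, Yy1, Sp1, Gabpb1, Gabpb2, mt-Atp6, Ppargc1a, Esrra, Tfam, Cycs, Atp5s and the F1 genes were named after their values were seen. A gene that the rule takes is not reported here. Promoter windows are from RefSeq. Alternatives covered scaling, pseudocount, filters, the fit, the threshold, the replicate block and left-out libraries.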

Additional observations from a re-analysis of the deposited data

How the results depend on the processing

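Of 54 respiratory chain genes called, 37 kept their call under all 17 settings (36 of 49 higher, 1 of 5 lower) and none of the 54 reversed. The median over all genes, -0.01 as reported, was 0.00046 to 0.012 under the other scalings. Among called genes of the other lists, mt-Atp6 reversed, to 0.054, only under quantile normalization, which sets all libraries to the same value at each rank. Leaving out 1 library at a time gave 38 to 51 higher and 2 to 6 lower genes, a median log2 fold change of 0.12 to 0.15, and 6010 to 7047 called genes in all. By group, it gave 1 to 4 lower complex I subunits with a median of 0.12 to 0.14, 1 to 3 higher assembly factors, 1 to 3 higher complex II genes, a complex III median of 0.11 to 0.17, 4 to 7 higher complex IV genes with a median of 0.080 to 0.12, and 0 to 2 lower complex V genes. Across the other settings 5354 to 7435 genes were called in all. The causes of the changes that follow were not tested. The number of lower genes was 3 under median-ratio scaling, quantile normalization and upper-quartile scaling, 2 with no filter and 1 at an adjusted p under 0.01. At that threshold the counts were 1 lower complex I subunit, 1 higher assembly factor, 1 higher complex II gene, 4 higher complex IV genes and 0 lower complex V genes. Under quantile normalization 4 complex II genes were higher and 1 complex V gene lower, with medians of 0.14 for complex I subunits and 0.13 for complex V. Upper-quartile scaling gave 4 higher assembly factors, 1 lower complex V gene and medians of 0.15 for the 87 genes, 0.14 for complex I subunits and 0.11 for complex IV. Median-ratio scaling gave 1 lower complex V gene, no filter gave 0, and a fit without trend gave 1, with 4 higher complex IV genes. Without replicate 1 of both groups, 4 assembly factors were higher and the medians were 0.14 for complex I subunits and for complex IV. With the replicate block, 53 genes were higher and 5 lower, and 4 assembly factors were higher. Samples with the same number deviated together with r of 0.18, 0.24 and 0.066, and each sample correlated best with its own number. The labels give no pairing and not all of these values exceed 0.1, so the reported fit does not pair the samples. Whether samples of the same number share a batch is not given in the labels and was not tested.

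In simulated data 15 of 50 genes changed 1.1-fold were recovered. Far fewer genes were called there (164) than in the data (6919), which makes the Benjamini-Hochberg threshold stricter there. That share therefore does not measure how many such changes were found here, and genes not called may still differ by that much.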
